A study of Mus musculus with 14 samples.

Results

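Serum of mice with a full-thickness skin wound on the back was compared between 2 h and 16 h of negative pressure (NP). The comparison takes in all NP samples at these times, 2 at 2 h and 2 at 16 h, which are 4 of the 14 samples of the series, and all 111 analytes of the array in each. The mice were male C57BL/6JNarl animals, 8 weeks old, with no transgene or deletion given. Wounded mice of the same strain, sex and age were kept under ambient pressure (AP) with a traditional wet dressing. The NP mice had a dressing joined to a suction device, so pressure and dressing cannot be told apart. The methods give isoflurane anesthesia, tranquilizers and analgesics for the mice without setting the groups apart. AP 2 h and AP 16 h, with 2 samples each, are the control for time. The remaining samples are the starting group at 0 h and both pressures at 0.5 h. Serum was read on a mouse cytokine array, a membrane on which spotted capture antibodies bind their antigen and a second antibody gives light. The serum put on a membrane was combined from several portions, and the methods speak of independent experiments behind the duplicates without saying which sample or animals belong to which, so the p-values speak only of sample-to-sample scatter that could be technical. The blood was left to clot for 0.5 to 2 h, a time not recorded for single samples, so release from platelets in the tube and release in the animal cannot be told apart.

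After a skin wound, platelets and the clotting cascade close the vessels first, and the clot together with resident cells releases chemokines that draw neutrophils and then monocytes. The liver answers to circulating cytokines with acute-phase proteins, which enter the blood over hours. Negative pressure wound therapy holds the wound under suction through a sealed dressing, and serum shows only what reaches the circulation from the wound, the liver, adipose tissue and other organs.

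Each membrane carries 3 reference positions and a negative control. Some analytes were brighter than the reference mean, such as IGFBP-1 at 179% and 197% of it at NP 2 h. The mean of the reference spots was 27336 and 23486 raw units in the NP 2 h samples and 17963 and 18123 in the NP 16 h samples, so that the later membranes had dimmer references. The deposited normalized intensity equalizes the 2 samples of a group with each other but not one group with another. Differences are therefore given on 2 scales, as log2 of the normalized intensity and as log2 of the raw intensity over the mean of the sample's own reference spots (reference-scaled). The reference-scaled difference of every analyte is larger than the normalized one by the same 0.39. This is the log2 fall of the reference mean after the factor behind the normalized intensity, not that of the raw means above. Taken after the same factor, that fall was unequal over the membrane. It was -0.14 and -0.16 for the reference spots of row A and -0.64 for those of row J. The negative control read 72 and 24 raw units at 2 h and 93 and 77 at 16 h. Above it were 87 and 110 of the 111 analytes in NP 2 h replicates 1 and 2, and 96 and 101 in NP 16 h replicates 1 and 2. All 6 proteins taken as markers of serum (Fetuin A, RBP4, Adiponectin, Complement Factor D, Cystatin C and IGFBP-3) were above the negative control in all 4 samples.

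More serum proteins were higher at 16 h of NP than lower on both scales. On the normalized scale 42 of 111 analytes were higher (37.8%) and 28 lower (25.2%), and on the reference scale 65 were higher (58.6%) and 21 lower (18.9%), at an adjusted p under 0.05 in limma with Benjamini-Hochberg adjustment over all analytes. An analyte is said to have risen or fallen below only if it passed on both scales in the same direction, which held for 42 higher (37.8%) and 21 lower (18.9%) analytes. The samples of the 2 times did not overlap on either scale for any of these 63. A call made from the same values favours this, so it is no separate support, and the share over all analytes is not given here. The balance moved with the scaling, to 28 higher and 25 lower by median scaling, 27 and 30 by quantile normalization and 66 and 20 with a plane fitted over the membrane. The median difference over all 111 analytes was 0.17 on the normalized and 0.56 on the reference scale. Another 20 analytes were higher on the reference scale alone and 4 were lower on the normalized scale alone. BAFF, Angiopoietin-1 and Reg3G, 3 in all, were called lower on the normalized and higher on the reference scale, so no direction is given for them. All 21 that fell were above the negative control in all 4 samples. Of the 42 that rose, 25 were above it in all 4 samples, and 16 were above it in only 1 NP 2 h sample. CXCL9, IL-2 and IL-3 passed the test although neither NP 16 h sample was above the brighter negative control of that time, and no change is read for these 3. In each of 26 settings of the limma fit over all 111 analytes, which leave out the t-test and both filters on dim analytes, 14 were called higher (FGF-21, CXCL13, CFIII, G-CSF, CCL6, IL-28A/B, CCL17, IL-27 p28, Myeloperoxidase, Pentraxin 2, VCAM-1, RBP4, Angiopoietin-2 and C-Reactive Protein). Among those called lower in every one of these settings were GDF-15, CCL20, Serpin E1, Flt-3 Ligand, FGF acidic, MMP-9, CCL21, LDL R, Thrombopoietin, IGFBP-5, Chemerin, Endostatin, DKK-1, MMP-2 and Gas 6.

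**Figure D1:**
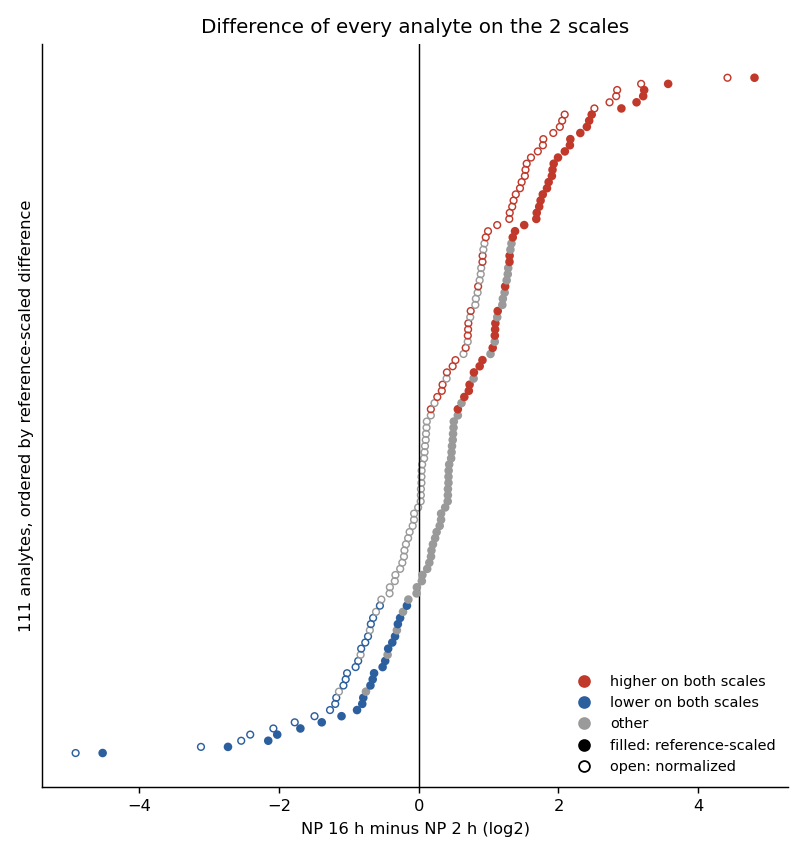
Difference between NP 16 h and NP 2 h (log2, x axis) for all 111 analytes, ordered by the reference-scaled difference. Filled points are reference-scaled and open points normalized, red marks the 42 analytes higher and blue the 21 lower on both scales, and the gap between open and filled points is the constant 0.39.

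FGF-21 and GDF-15, both hormones released by stressed cells and tissues, moved in opposite directions and were the most changed analytes of the array. FGF-21, which the liver secretes in fasting and stress, read 99.7 and 74.0 normalized units at NP 2 h and 1811 and 1864 at NP 16 h. Both late samples were far above both early ones, and the rise was 4.81 ± 0.29 (SE) reference-scaled and 4.42 normalized on the log2 scale (limma, adjusted p = 7.1e-10 and 1.5e-09). GDF-15, which is induced by cell stress and lowers food intake through a hindbrain receptor, read 3897 and 4609 at NP 2 h and 165 and 120 at NP 16 h. It was therefore high in both early samples and low in both late ones, and it fell by 4.53 ± 0.23 (SE) reference-scaled and fell by 4.91 normalized (adjusted p = 9.6e-11 and 3.3e-11). As linear ratios on the reference scale FGF-21 was 28 times as high at 16 h, and GDF-15 was 23 times as high at 2 h.

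**Figure D2:**
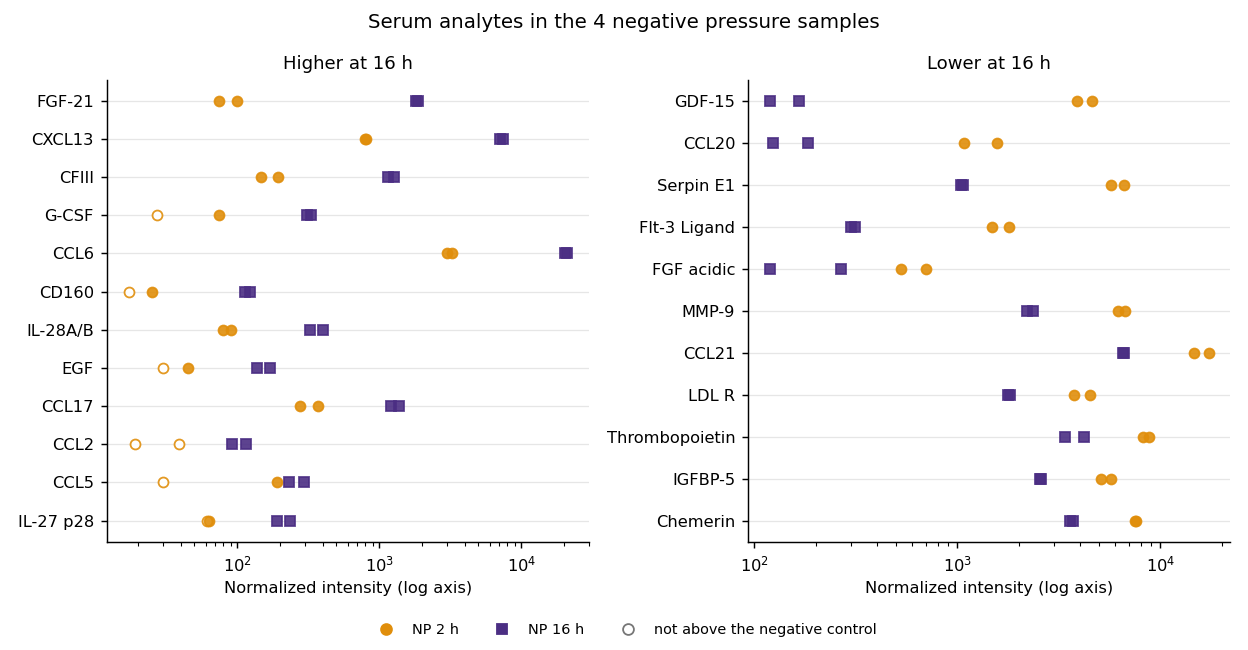
Normalized intensity (log axis) of the 12 analytes with the largest rise (left) and 11 of those with the largest falls (right) in each of the 4 NP samples, where circles are NP 2 h, squares NP 16 h and open symbols values not above the negative control. By the rule that chose these analytes, the samples of one time lie on the same side of those of the other. The closest are those of CCL5, at 191 in NP 2 h replicate 2 and 231 in NP 16 h replicate 1.

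Chemokines, the small proteins that direct leukocyte migration, moved in both directions. Of the 6 CC chemokines that draw monocytes and eosinophils, 3 rose (37.8% over all analytes), with a median of 1.39 reference-scaled against 0.56 over all analytes. In 2 of these 3, CCL2 and CCL5, at least 1 NP 2 h sample was not above the negative control. CCL6, a CC chemokine of mouse myeloid cells, read 2992 and 3242 at NP 2 h and 21089 and 20269 at NP 16 h. Both late samples were several times the early ones, and the rise was 3.12 ± 0.08 (SE) reference-scaled and 2.73 normalized (adjusted p = 8.3e-15 and 6.2e-14), the smallest p of the comparison. CCL2, the main attractant of CCR2-bearing monocytes, read 38.7 and 19 at NP 2 h, where neither sample was above the negative control, and 115 and 92.2 at NP 16 h. It was thus at least 2.58-fold higher at 16 h on the normalized scale and at least 3.38-fold higher on the reference scale, the early level being set to the higher of its own value and the lowest signal above the control. CCL5, which platelets and T cells store and release, read 30.1 and 191 at NP 2 h and 231 and 294 at NP 16 h. Its early samples differed widely, with only the second above the negative control. The difference of 2.17 ± 0.59 (SE) reference-scaled and 1.78 normalized was called (adjusted p = 0.0037 and 0.015), but without NP 2 h replicate 1 it was 0.84 and 0.45, and neither passed (adjusted p = 0.065 and 0.34). CCL11, the eotaxin that draws eosinophils, was called lower on the normalized scale alone, with -0.42 there and -0.03 reference-scaled.

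Chemokines of lymphocytes and dendritic cells changed in both directions, with 3 of 9 rising and 3 falling, against 37.8% and 18.9% of all analytes. CXCL13, which guides B cells into follicles through CXCR5, read 796 and 804 at NP 2 h and 7140 and 7397 at NP 16 h. The rise was 3.57 ± 0.15 (SE) reference-scaled and 3.18 normalized (adjusted p = 1.2e-11 and 3.3e-11). CCL17, a ligand of CCR4 on T helper cells, went from 276 and 370 to 1380 and 1215, a rise of 2.41 ± 0.22 (SE) reference-scaled (adjusted p = 7e-08). CCL22, the other CCR4 ligand on the array, read 2397 and 3138 at 2 h and 2662 and 2571 at 16 h, overlapping between the times on the normalized scale. As a percentage of the reference spots it read 10.2% and 13.4% and then 14.8% and 14.3%, and it was called higher on the reference scale alone. CCL19 and CCL21, which share the receptor CCR7 and lead dendritic cells and naive T cells to lymph nodes, went opposite ways. CCL19 rose from 67.0 and 73.0 to 176 and 168, by 1.68 ± 0.31 (SE) reference-scaled (adjusted p = 0.00016). CCL21 was high in both early samples, at 14600 and 17249, and low in both late ones, at 6645 and 6509, and it fell by 0.88 ± 0.08 (SE) reference-scaled (adjusted p = 4e-08). CCL20, the ligand of CCR6 on Th17 cells and dendritic cells, fell from 1572 and 1082 to 123 and 183, by 2.73 ± 0.50 (SE) reference-scaled and fell by 3.12 normalized (adjusted p = 0.00015 and 4.7e-05). Chemerin, which attracts plasmacytoid dendritic cells and is made by the liver and adipose tissue, read 7598 and 7512 early and 3599 and 3717 late. It fell by 0.66 ± 0.08 (SE) as a reference-scaled log2 ratio, and each late sample lay below each early one.

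Of the 3 CXC chemokines that draw neutrophils, CXCL1 and CXCL2 rose (37.8% over all analytes). LIX, the mouse CXCL5, was called on the reference scale alone. CXCL1 read 35.2 and 25.0 at NP 2 h and 126 and 59.5 at NP 16 h, and CXCL2 read 42.1 and 33 and then 93.0 and 115. Both lie close to the negative control, each with 1 of 2 samples above it at either time, and without NP 16 h replicate 1 the normalized difference of CXCL1 was 1.00 in place of 1.54 and did not pass (adjusted p = 0.078). LIX was bright throughout, at 26912 and 30617 early and 31298 and 29519 late.

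Of the 7 clotting and platelet factors 2 rose (CFIII and CCL5) and 2 fell, with a median of 0.17 reference-scaled. Over all analytes 37.8% rose and 18.9% fell, with a median of 0.56. Coagulation Factor III (CFIII), the tissue factor that starts clotting when blood meets injured tissue, read 192 and 148 at NP 2 h and 1264 and 1155 at NP 16 h. Both late samples were well above the early ones, and the rise was 3.23 ± 0.25 (SE) reference-scaled and 2.84 normalized (adjusted p = 9.9e-09 and 4.3e-08). Serpin E1, or PAI-1, the inhibitor of the plasminogen activators that dissolve clots, went the other way, from 5707 and 6624 to 1041 and 1070. It fell by 2.16 ± 0.17 (SE) reference-scaled and fell by 2.54 normalized (adjusted p = 1.1e-08 and 1.5e-09). Thrombopoietin, the liver hormone that drives platelet production, read 8234 and 8821 early and 4180 and 3378 late. It fell by 0.79 ± 0.10 (SE) reference-scaled and fell by 1.18 normalized (adjusted p = 2.5e-06 and 2.2e-08). PDGF-BB, a platelet mitogen for fibroblasts and smooth muscle, read 3320 and 4147 at NP 2 h and 2912 and 3267 at NP 16 h. Its difference was -0.27 ± 0.31 (SE) normalized and 0.12 reference-scaled, called on neither scale (adjusted p = 0.46 and 0.73), and the sign changed between them. EGF, a mitogen of epithelia that human platelets also carry, rose from 30.1 and 45.0, the first not above the negative control, to 169 and 138, by 2.44 ± 0.33 (SE) reference-scaled (adjusted p = 7e-06). Over the 6 platelet markers (PDGF-BB, EGF, P-Selectin, CCL5, Angiopoietin-1 and Serpin E1) the summed normalized intensity was 39661 to 46778 at NP 2 h and 34868 to 36606 at NP 16 h. As a percentage of the reference spots the same sum was 169 to 199 and 194 to 204. The part of platelets in the changes of the clotting factors was not tested.

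Of 9 growth factors of blood cells and T cells, 5 were called higher on both scales and 2 lower, against 37.8% and 18.9% of all analytes. None of the 5 was above the negative control in NP 2 h replicate 1. They are among 23 analytes with only 1 early sample above it, of which 16 were called higher. No change is read for IL-2 and IL-3 among the 5, since both were below the negative control at 16 h. G-CSF, the growth factor of neutrophils, read 27.5 and 75.0 at NP 2 h, the first not above the negative control, and 333 and 311 at NP 16 h. Both late samples were above both early ones, and the rise was 3.21 ± 0.41 (SE) reference-scaled and 2.83 normalized (adjusted p = 3.7e-06 and 1.6e-05). GM-CSF, which acts on granulocytes and macrophages, read 33.5 and 27.0 at NP 2 h, the first not above the negative control and the second at 27 raw units against a control of 24, and 95.0 and 101 at NP 16 h. Its fitted difference of 2.09 ± 0.45 (SE) reference-scaled (adjusted p = 0.00055) thus rests on early values close to or below the control. IL-15, which maintains natural killer and memory T cells, read 26.6 and 59.0 and then 83.0 and 175, with 1 sample above the negative control at each time. Its normalized difference of 1.61 was 1.03 without NP 2 h replicate 1 and 1.07 without NP 16 h replicate 2, and did not pass in either case (adjusted p = 0.080 and 0.097). Flt-3 Ligand, which expands dendritic cell precursors, was high in both early samples, at 1484 and 1803, and low in both late ones, at 300.0 and 314. It fell by 2.03 ± 0.17 (SE) reference-scaled and fell by 2.41 normalized (adjusted p = 2.9e-08 and 3.5e-09). M-CSF, the macrophage growth factor, read 3792 and 3526 and then 2835 and 2656, with -0.41 normalized and -0.03 reference-scaled, and was called on the normalized scale alone.

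The 6 analytes around interferon gamma all had positive differences, with a median of 1.34 reference-scaled against 0.56 over all analytes. CXCL9, CXCL10 and CXCL11 lie in membrane row D, where the median over the row was 0.91. IL-12 p40 and IL-27 p28 lie in row G, with a row median of 1.18, and IFN-γ in row E, with 0.12. On both scales 5 of the 6 passed (37.8% over all analytes). Among these, CXCL9 was below the negative control at 16 h, and quantile normalization turned it to -0.19. All but IL-12 p40 had only 1 NP 2 h sample above the negative control. Of the 23 such analytes on the array 16 were called higher, with a median over the 23 of 1.72 reference-scaled. IL-27 p28, a subunit of the cytokine IL-27 of antigen-presenting cells, read 61.0 and 63.0 at NP 2 h and 192 and 235 at NP 16 h, a rise of 2.16 ± 0.36 (SE) reference-scaled (adjusted p = 6.2e-05). IFN-γ itself read 60.1 and 68.0 and then 123 and 118. Its difference of 1.30 ± 0.36 (SE) reference-scaled and 0.91 normalized was called (adjusted p = 0.0039 and 0.036), but on the normalized scale it did not pass when any 1 of the 4 samples was left out, with 0.82 to 1.00 and adjusted p from 0.050 to 0.12. IL-12 p40, the subunit that IL-12 and IL-23 share, read 138 and 156 at NP 2 h and 202 and 297 at NP 16 h, above the negative control in all 4 samples. Its difference was 1.13 ± 0.28 (SE) reference-scaled and 0.74 normalized (adjusted p = 0.0018 and 0.029). On the normalized scale it was 0.65 without NP 2 h replicate 1 and 0.46 without NP 16 h replicate 2, neither of which passed (adjusted p = 0.097 and 0.23). CXCL10, an interferon-induced chemokine, was above the control in neither late sample, and CXCL11, a related one, read 39.5 and 65.0 and then 83.0 and 147. The CXCL11 difference of 1.12 normalized did not pass without NP 2 h replicate 1 (0.76) or without NP 16 h replicate 2 (0.71, adjusted p = 0.16 and 0.21). IL-28A/B, a type III interferon that acts on epithelia, was more stable, with 79.9 and 90.0 early and 399 and 326 late. It rose by 2.48 ± 0.33 (SE) as a reference-scaled log2 ratio (adjusted p = 6.2e-06).

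Most other inflammatory cytokines were dim, though IL-4 read 803 and 1000 normalized units at NP 2 h and 827 and 611 at NP 16 h. Of the IL-1 family and TNF, 2 of 5 passed as higher on both scales, near the 37.8% of all analytes. TNF-α, an early cytokine of macrophages, read 63.6 and 29.0 and then 105 and 131, a difference of 1.84 ± 0.39 (SE) reference-scaled and 1.45 normalized (adjusted p = 0.00055 and 0.0041). Its early samples lay close to the negative control, at 74 and 29 raw units against 72 and 24. Without NP 2 h replicate 2 the normalized difference was 0.88 and did not pass (adjusted p = 0.060). IL-1β, which the inflammasome releases, had 1 sample above the negative control at each time, its normalized difference of 1.30 was 0.75 without NP 16 h replicate 2 (adjusted p = 0.19), and quantile normalization turned it to -0.19. None of the 3 members of the IL-6 family (IL-6, IL-11 and LIF), of the 4 type 2 cytokines with IL-10 (IL-4, IL-5, IL-13 and IL-10) and of the 3 type 17 cytokines (IL-17A, IL-22 and IL-23) passed on both scales by limma. Of these 10, 1 on the normalized and 4 on the reference scale had an unadjusted p under 0.05, 3 (the type 17 cytokines) were called on the reference scale alone, and the methods' t-test gave 0 and 1 before adjustment and 0 on either scale after it. IL-6, which drives the hepatic acute phase, read 122 and 219 at NP 2 h and 181 and 156 at NP 16 h, with overlapping samples. IL-17A, a cytokine that calls neutrophils to epithelia, read 24.1 and 40 and then 65.0 and 47.6, and neither late sample was above the negative control.

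**Figure D3:**
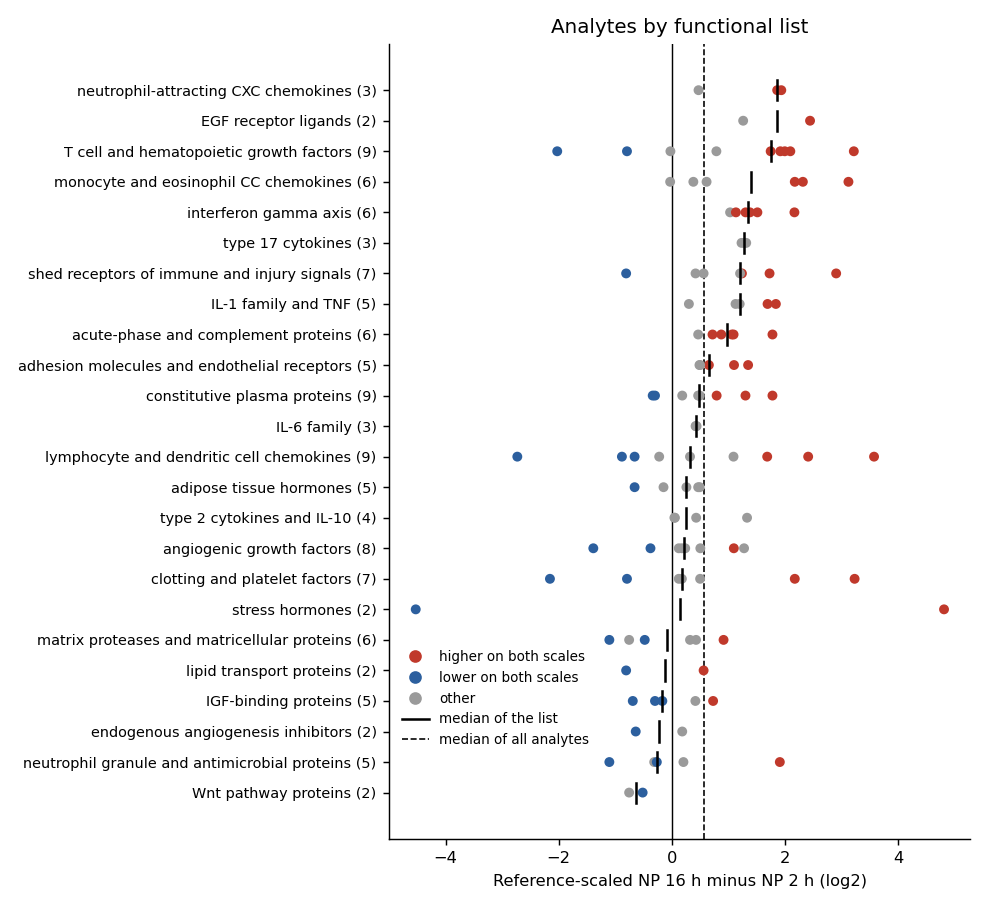
Reference-scaled difference between NP 16 h and NP 2 h (log2) for the members of 24 functional lists, with the number of members in brackets. Points are analytes, red higher and blue lower on both scales, short black lines are list medians, and the dashed line is the median of all analytes at 0.56; an analyte may be in more than 1 list.

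Plasma proteins of the acute phase and of complement rose in 5 of 6 cases (37.8% over all analytes), with a median of 0.96 reference-scaled and 0.58 normalized against 0.56 and 0.17 over all. The 5 include CD93, a cell-surface receptor once taken for the C1q receptor, at 0.48 normalized. Pentraxin 2, the serum amyloid P component that is a major acute-phase protein of the mouse, read 2855 and 3007 at NP 2 h and 7728 and 7614 at NP 16 h. Replicates lay close together at each time, and the rise was 1.78 ± 0.13 (SE) reference-scaled and 1.39 normalized (adjusted p = 8.4e-09 and 1.6e-07). C-Reactive Protein, a related pentraxin from the liver, rose from 10033 and 11691 to 17858 and 17374, by 1.09 ± 0.08 (SE) reference-scaled (adjusted p = 4.3e-09). Pentraxin 3, which is made at the site of inflammation, rose from 3369 and 3992 to 5775 and 5905, by 1.06 ± 0.14 (SE) reference-scaled. Complement Component C5, the source of the anaphylatoxin C5a, read 1344 and 1374 and then 1779 and 1638, a difference of 0.33 normalized that did not pass without NP 2 h replicate 1 or without NP 16 h replicate 1 (0.31 and 0.27, adjusted p = 0.054 and 0.11). Complement Factor D, an adipose protease of the alternative pathway, was called on the reference scale alone. The 5 liver markers Fetuin A, RBP4, C-Reactive Protein, Pentraxin 2 and Angiopoietin-like 3 summed to 27189 to 30149 normalized units at NP 2 h and 40606 to 41294 at NP 16 h. Of these 5, 4 were higher and 1 lower (37.8% and 18.9% over all analytes). RBP4, the carrier of retinol in blood, rose from 1886 and 2509 to 3947 and 4242, by 1.30 ± 0.14 (SE) reference-scaled. Fetuin A, a glycoprotein of the liver, read 5464 and 4831 and then 3246 and 2969. It fell by 0.34 ± 0.11 (SE) reference-scaled, which did not pass without NP 2 h replicate 1 or without NP 16 h replicate 2 (adjusted p = 0.090 and 0.075).

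Proteins of neutrophil granules went separate ways, with 1 of 5 analytes of the list rising and 2 falling (37.8% and 18.9% over all analytes). Myeloperoxidase, the peroxidase of azurophil granules, read 1169 and 1563 at NP 2 h and 3976 and 3773 at NP 16 h, a rise of 1.91 ± 0.12 (SE) reference-scaled (adjusted p = 1.5e-09). MMP-9, the gelatinase of neutrophils and macrophages, was high in both early samples, at 6186 and 6657, and low in both late ones, at 2366 and 2197. It fell by 1.11 ± 0.09 (SE) reference-scaled and fell by 1.49 normalized (adjusted p = 3.1e-08 and 1.1e-09). Reg3G, an antimicrobial lectin of epithelia, read 26945 and 28186 and then 24495 and 24018, which is -0.18 normalized and 0.20 reference-scaled, called in opposite directions. Over the 4 neutrophil markers (Myeloperoxidase, MMP-9, Lipocalin-2 and Resistin) the summed normalized intensity was 17962 to 20731 at NP 2 h and 16035 to 17139 at NP 16 h, and 76.5% to 88.3% and 89.3% to 95.4% of the reference spots.

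Receptors and adhesion molecules of the endothelium rose in 3 of 5 cases, against 37.8% of all analytes. VCAM-1, which holds leukocytes on activated endothelium, read 4436 and 5387 at NP 2 h and 9662 and 9338 at NP 16 h, a rise of 1.35 ± 0.11 (SE) reference-scaled and 0.96 normalized (adjusted p = 3.1e-08 and 1.6e-06). Endoglin, a co-receptor of TGF-β on dividing endothelium, rose from 2182 and 2560 to 4011 and 3724, by 1.10 ± 0.16 (SE) reference-scaled (adjusted p = 1.2e-05). E-Selectin, which slows leukocytes on the vessel wall, had 0.27 normalized and 0.65 reference-scaled, and without NP 2 h replicate 1 the normalized value was 0.19 and did not pass (adjusted p = 0.051). ICAM-1 and P-Selectin, which also bind leukocytes, were called on the reference scale alone, with 0.10 and 0.11 normalized. Among receptors shed into serum, CD160, a receptor of natural killer and T cells, read 17.2 and 25.0 at NP 2 h, the first not above the negative control and the second at 25 raw units against a control of 24, and 114 and 123 at NP 16 h. Its fitted difference was 2.90 ± 0.35 (SE) as a reference-scaled log2 ratio (adjusted p = 2.5e-06), and rests on an early level close to or below the control. RAGE, the receptor of glycated proteins and alarmins, read 70.5 and 200.0 and then 294 and 149, overlapping between the times. It was called on the reference scale alone, at 1.20 ± 0.39 (SE) with adjusted p = 0.011, and not without NP 2 h replicate 1 (0.45) or NP 16 h replicate 1 (0.71).

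Of 8 angiogenic growth factors 1 rose and 2 fell, against 37.8% and 18.9% of all analytes. Angiopoietin-2, which loosens vessel walls, went from 5707 and 6635 to 10204 and 9874, a rise of 1.09 ± 0.07 (SE) reference-scaled and 0.71 normalized (adjusted p = 2.4e-09 and 4.1e-07). FGF acidic, a mitogen of endothelium and fibroblasts, read 527 and 704 at NP 2 h and 119 and 266 at NP 16 h. It fell by 1.39 ± 0.32 (SE) reference-scaled and fell by 1.78 normalized (adjusted p = 0.0010 and 0.00016), and without NP 16 h replicate 1 the reference-scaled value was -0.81 (adjusted p = 0.023). HGF, a scatter factor of epithelia, read 1533 and 1744 and then 1037 and 891, and it fell by 0.38 reference-scaled, which did not pass without NP 2 h replicate 2 or NP 16 h replicate 2 (adjusted p = 0.059 and 0.081). VEGF, the main vascular mitogen, lay at 130 and 109 and then 78.0 and 147, with overlapping samples. Endostatin, a collagen fragment that inhibits angiogenesis, fell from 7208 and 7307 to 3550 and 3573, by 0.64 ± 0.08 (SE) reference-scaled and fell by 1.03 normalized (adjusted p = 4.9e-06 and 2.2e-08).

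Of 2 proteins of lipid transport 1 fell and 1 rose, against 18.9% and 37.8% of all analytes. The LDL receptor (LDL R), which takes up lipoproteins and is found in serum in a soluble form, read 4499 and 3753 early and 1765 and 1822 late. It fell by 0.81 ± 0.12 (SE) reference-scaled and fell by 1.20 normalized (adjusted p = 2.6e-05 and 4.1e-07). Angiopoietin-like 3, an inhibitor of lipoprotein lipase, had 0.56 reference-scaled and 0.17 normalized, and on the normalized scale 0.06 without NP 2 h replicate 1 (adjusted p = 0.44).

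IGF-binding proteins, which carry insulin-like growth factors, fell in 3 of 5 cases and rose in 1, against 18.9% and 37.8% of all analytes. IGFBP-5 read 5736 and 5107 at NP 2 h and 2586 and 2538 at NP 16 h, and fell by 0.69 ± 0.08 (SE) reference-scaled and fell by 1.08 normalized (adjusted p = 2.4e-06 and 1.3e-08). IGFBP-3, the main carrier in plasma, and IGFBP-1, a liver product under insulin control, fell, with -0.30 and -0.17 reference-scaled. Without NP 2 h replicate 2 these were -0.19 and -0.10 and did not pass (adjusted p = 0.10 and 0.23). IGFBP-6 had 0.34 normalized and 0.73 reference-scaled, but quantile normalization turned it to -0.18. Among matrix proteins and their proteases, Osteopontin, a matricellular cytokine, rose by 0.91 ± 0.06 (SE) reference-scaled, from 8769 and 9042 to 12849 and 12770. MMP-2, a gelatinase of fibroblasts, fell by 0.48 ± 0.10 (SE) reference-scaled, from 4324 and 4044 to 2452 and 2142. DKK-1, a secreted inhibitor of Wnt signalling, was high in both early samples, at 2852 and 3170, and lower in both late ones, at 1651 and 1562. It fell by 0.52 ± 0.10 (SE) reference-scaled and fell by 0.90 normalized (adjusted p = 0.00019 and 5.9e-07).

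Detection differed between the times. In NP 2 h, 1 analyte (CCL2) was above the negative control in neither sample and 23 in only 1, and in NP 16 h 8 were above it in neither (CCL3/CCL4, CXCL9, CXCL10, IL-2, IL-3, IL-10, IL-17A and Leptin) and 9 in only 1. Leptin, the adipose hormone of satiety, read 77.3 and 106 at NP 2 h and 57.0 and 68.4 at NP 16 h. IL-10 read 67.9 and 75.0 and then 58.0 and 54.5, and CCL3/CCL4 read 43.8 and 93.0 and then 70.0 and 57.5. None of these 3 passed on either scale. In normalized intensity the median analyte's replicates differed by 19.2% at NP 2 h and by 8.34% at NP 16 h. These values include the normalization factor, which was 0.859 for NP 2 h replicate 1 and 0.991 for NP 16 h replicate 2.

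Time alone was checked against the AP samples, by the test of whether the step from 2 h to 16 h differed between NP and AP. The NP step lay above the AP step for 56 analytes (50.5%) and below it for 9 (8.11%) on both scales. After the normalization factor, the reference mean changed almost alike under NP and AP, by -0.39 and -0.42 on the log2 scale. For this contrast the 2 scales are thus nearly the same test, and passing both adds little to passing 1. By median scaling the split was 7 above and 77 below, and by quantile normalization 28 and 33. Over all 111 analytes the median of the difference of the steps was 0.65 reference-scaled and 0.69 normalized. AP 16 h had 32 analytes above the negative control in neither sample, so the values below are for the 61 analytes above it in all 8 samples, of which 38 had a higher and 7 a lower step under NP. FGF-21 read 0.424% and 0.315% of the reference spots at NP 2 h and 10.1% and 10.4% at NP 16 h, against 3.37% and 1.99% at AP 2 h and 1.08% and 1.33% at AP 16 h. Its 2 steps thus ran in opposite directions, and their difference was 5.92 ± 0.41 (SE, log2, reference-scaled). CXCL13 read 3.39% and 3.42% and then 39.7% and 41.2% under NP, and 13.9% and 14.9% and then 9.72% and 8.71% under AP, a difference of the steps of 4.21 ± 0.21 (SE). CCL17, Endoglin and IL-12 p40 followed, with 3.43, 2.78 and 2.78. The difference was called in each of 34 limma settings over all analytes for FGF-21, CXCL13 and CCL17. For CCL17, Endoglin and IL-12 p40 the reference-scaled AP step was negative, at -1.03, -1.68 and -1.65. IL-12 p40 read 244 and 298 raw units at AP 16 h against negative controls of 203 and 296, so its AP step rests on values close to the control. FGF-21 was also near the control there, at 276 and 337 raw units.

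Among the analytes whose NP step lay below the AP step, Flt-3 Ligand, Pentraxin 2, IGFBP-5 and Endostatin had reference-scaled differences of the steps of -1.28, -0.87, -0.71 and -0.60 (log2). Pentraxin 2 differs from the others in that it was higher at 16 h under both pressures, with 12.2% and 12.8% and then 43.0% and 42.4% under NP, and 6.90% and 7.11% and then 43.0% and 44.9% under AP. CCL6 was also higher at 16 h under both, at 68.1% and 73.7% in AP 16 h and 117% and 113% in NP 16 h. Its NP step was larger by 0.71 ± 0.11 (SE) reference-scaled, close to the median difference of the steps over all analytes given above. Serpin E1 was lower at 16 h under both, at 20.8% and 22% and then 3.85% and 3.57% under AP, and its steps were not called different. GDF-15 was not above the negative control in AP 16 h, so no difference of its steps is given. At 2 h it read 16.6% and 19.6% under NP and 1.89% and 1.57% under AP. MMP-9 was lower at 16 h under both, at 30.3% and 29.0% and then 3.28% and 2.72% under AP. Its NP step lay above the AP step by 2.21 ± 0.13 (SE) reference-scaled. The differences of the steps for CCL6 and MMP-9 are given on this scale only, and the split over all analytes moved with the scaling, as given above.

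**Figure D4:**
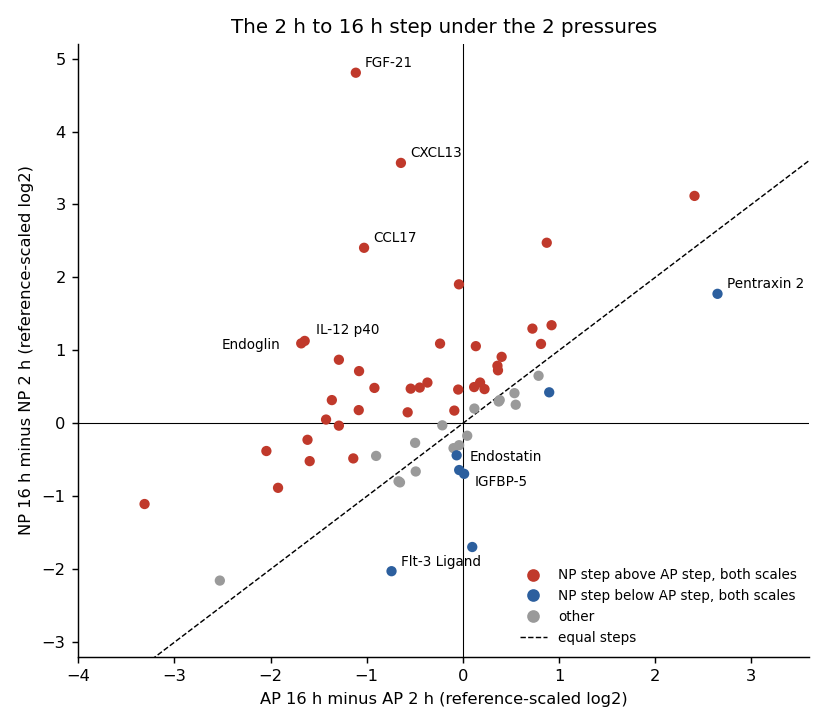
Reference-scaled step from 2 h to 16 h (log2) under NP (y axis) against the step under AP (x axis) for the 61 analytes above the negative control in all 8 samples. Red marks the 38 analytes whose NP step is above and blue the 7 whose NP step is below the AP step on both scales, and the dashed line marks equal steps; FGF-21 lies farthest from it.

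**Figure D5:**
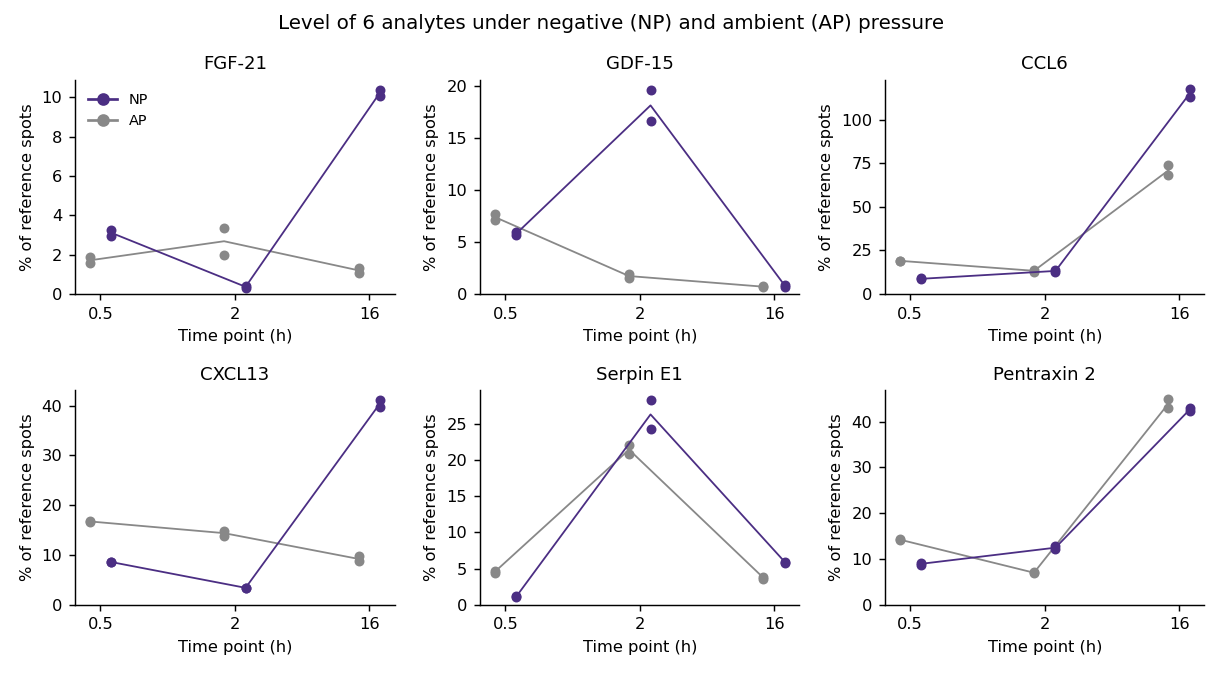
Level of 6 analytes as a percentage of the sample's reference spots under NP and AP at each time point (0.5, 2 or 16 h), with points for samples and lines through the group means. FGF-21 and CXCL13 are lowest at NP 2 h and highest at NP 16 h, GDF-15 is highest at NP 2 h, and Pentraxin 2 and CCL6 are highest at 16 h under both pressures.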

How the data were processed

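Spots of the mouse XL cytokine array were quantified in ImageJ by the authors, per the study's methods, who deposited the raw intensity of each analyte and a normalized intensity, the raw value times a factor that lowers the brighter of 2 replicates to the reference mean of the other. The product was checked (largest relative difference 4.75e-06). The other 14 per-sample columns, the authors' fold over 0 h, were not used. All 111 analytes were matched to symbols. An analyte counted as above the negative control where its raw intensity exceeded it. Log2 values of the 14 samples in 7 groups were fitted in limma 3.58.1 (R 4.3.3; lmFit, eBayes with trend), adjusted over 111 analytes, threshold 0.05, tested on simulated data. The number of membranes limits precision. The methods' t-test, other scalings, subtraction of the control, an offset, filters, other fits and leaving out samples were alternatives. Analytes and lists were chosen with earlier results of these data known. Named are the 12 highest and 12 lowest called on both scales without overlap, those the study names, those above the control in neither sample of a time, the 5 highest and 5 lowest differences of the steps, and examples from each list. One analyte that the rule selects is not reported here.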

Additional observations from a re-analysis of the deposited data

Results flagged for a closer look

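Of all 111 analytes, 56 (50.5%) had an NP step from 2 h to 16 h above the AP step on both scales, and 9 (8.11%) below it. By median scaling the split was 7 above and 77 below. The 9 analytes named here passed the test of the difference itself (limma, adjusted over 111 analytes, on both scales). They are among the highest and lowest of the analytes above the negative control in all 8 samples. The 2 scales are nearly the same test for this contrast. On the reference-scaled log2 axis the NP step minus the AP step was 5.92 for FGF-21, 4.21 for CXCL13, 3.43 for CCL17, 2.78 for Endoglin and 2.78 for IL-12 p40. It was -1.28 for Flt-3 Ligand, -0.87 for Pentraxin 2, -0.71 for IGFBP-5 and -0.60 for Endostatin. In each of the 34 limma settings run over all analytes for this contrast, the difference was called higher for FGF-21, CXCL13 and CCL17 and lower for Flt-3 Ligand and IGFBP-5 among these 9. For IL-12 p40 and FGF-21 the AP 16 h values lay close to the negative control.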

How the results depend on the processing

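Of the named analytes' alternative values, 942 kept direction and call, 75 were no longer called, 5 became called and 12 reversed. In every one of 26 limma settings over all 111 analytes, t-tests and filters on dim analytes left out, 14 analytes were called higher and 16 lower. The normalized count of higher analytes (42) was 27 by quantile normalization, 66 with a plane over the membrane, 24 with the negative control subtracted, 22 with an offset of 1% of the reference, 25 with only analytes above the control throughout, 26 by the methods' t-test and 12 after its adjustment. The reference-scaled count (65) was 28 by median scaling, 27 by quantile normalization, 41 with the control subtracted and 24 by the adjusted t-test, and the count on both scales was 24, 22, 25, 26 and 12 with subtraction, offset, filter, t-test and adjusted t-test. Lower analytes by the adjusted t-test were 11 normalized, 9 reference-scaled and 9 on both. Higher against lower calls split 66 to 20 with the plane, 28 to 25 by median and 27 to 30 by quantile scaling. The difference of the steps split 7 higher to 77 lower by median scaling and 28 to 33 by quantile normalization, against 56 to 9. The cause was not tested. Leaving out 1 sample gave 32 to 48 higher and 17 to 22 lower on both scales, and 14 of the 42 and 5 of the 21 lost a call on 1 scale or both.

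IL-17A reversed on the normalized scale to -0.56 by quantile normalization, -1.90 with subtraction and -0.18 with the offset, and on the reference scale to -0.56 and -1.51 by the first and second of these. PDGF-BB became 0.092 by quantile normalization and 0.34 with the plane (normalized) and -0.37 by median scaling (reference-scaled), where leaving out 1 sample gave -0.040 to 0.28. Reg3G became 0.52 with the plane (normalized) and -0.29 and -0.074 by median and quantile scaling (reference-scaled). Counts on both scales have no value under scalings that replace both.

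With the replicate number as a replicate block, 44 higher and 28 lower were called on the normalized and 66 and 21 on the reference scale. What a replicate number marks is not given in the sources used here, and the deviations of same-numbered NP 2 h and NP 16 h samples correlated at 0.156. Signals near the negative control limit what can be read of the dim cytokines.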
